A study of Homo sapiens with 36 samples.

Results

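The genes described here are 39 members of the Notch pathway, chosen by name and grouped by their place in the pathway: 4 receptors, 8 ligands, 10 genes of the HES, HEY and NRARP type (called target genes here), 3 Fringe glycosyltransferases, 4 components of the nuclear complex, 5 proteases and 5 regulators of trafficking and ubiquitination. Target is only the name of that group, which includes HES6, and whether Notch drove its genes in these cells was not tested. All 39 were found by symbol among the 28516 genes counted in human neural stem cells (hNSC), and all 39 were among the 19689 genes with at least 10 counts over all libraries, which were tested. The lowest of them, HEY2, only just reached that minimum, with 10 counts in all and at most 1 in a library, so its levels and fold changes are not interpreted.

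In the Notch pathway a ligand of the Delta or Jagged family on 1 cell binds a NOTCH receptor on its neighbour. The receptor is then cut by an ADAM protease and by the gamma-secretase complex, and its intracellular domain enters the nucleus, joins the DNA-binding protein RBPJ and a MAML coactivator, and switches on HES and HEY genes. Among these are repressors that keep neural stem cells from differentiating, in large part by holding down proneural genes, whereas HES6 promotes neurogenesis and counteracts HES1. Fringe enzymes (LFNG, MFNG and RFNG) add sugars to the receptors and so shift which ligand they answer to, and NUMB restrains the receptors.

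The hNSC are a commercial culture that was transduced with lentivirus and collected after 48 h. In MEIS1-OE and MEIS2-OE, the CRISPR-activation system (a guide RNA with MS2 loops, a Cas9 that does not cut fused to VP64, and the MPH activator) was directed to the MEIS1 or the MEIS2 gene, and in ctrl-OE the same system carried non-targeting guides. In MEIS1-KO and MEIS2-KO, cutting Cas9 and a mixture of 2 guides per gene were delivered from a lentiCRISPRv2 vector, with non-targeting guides in ctrl-KO. Each of the 6 conditions has 6 libraries, and since the labels do not name separate cultures, the p-values measure the spread between these samples only. The populations are mixed rather than clonal, and the targeted transcript remained measurable after knockout: MEIS1 had a mean of 8.96 CPM in MEIS1-KO against 25.7 in ctrl-KO and 310 in MEIS1-OE against 17.8 in ctrl-OE. MEIS2 had 12.1 CPM in MEIS2-KO against 25.8 in ctrl-KO, and 824 in MEIS2-OE against 22.6 in ctrl-OE. CPM are counts normalised to library size with TMM factors, a fold change is the first condition over the second on the log2 scale with its standard error (SE), and a gene is called where the adjusted p of edgeR's quasi-likelihood F test is under 0.05. In such bulk samples fewer expressing cells and less RNA per cell cannot be told apart.

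The gene counts of a library summed to 15429985 at the least and 22940493 at the most. Summed over 7 neural stem cell markers the level was 1173 to 1649 CPM in the 3 activation conditions and 2090 to 2829 CPM in the 3 knockout conditions, with none of the 7 at 0 throughout a condition. Libraries differed in how GC-rich transcripts were represented. Measured as the median log2 deviation of the 20% of genes with the highest GC content minus that of the 20% with the lowest, this GC trend ran from -0.628 in ctrl-KO 2 to 0.534 in MEIS1-KO 6. Libraries that stood apart within their condition were ctrl-OE 6 at 0.506, MEIS1-OE 3 at -0.472 (the others between 0.208 and 0.398), MEIS1-KO 6 and ctrl-KO 2 (the others between -0.232 and 0.0823). The Notch genes are exposed to it, since 31 of the 39 lie above the median GC content of tested genes, up to 73.9% GC in HES4. NOTCH1 (63.3% GC) ranged from 61.9 CPM in ctrl-KO 2 to 161 in MEIS1-KO 6, and NOTCH3 (63.1% GC) from 192 CPM in MEIS1-OE 3 to 428 in MEIS1-KO 6. Each comparison was therefore also fitted with offsets that remove this trend, and without each of those 4 libraries, and calls that differ are given beside it.

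**Figure D1:**
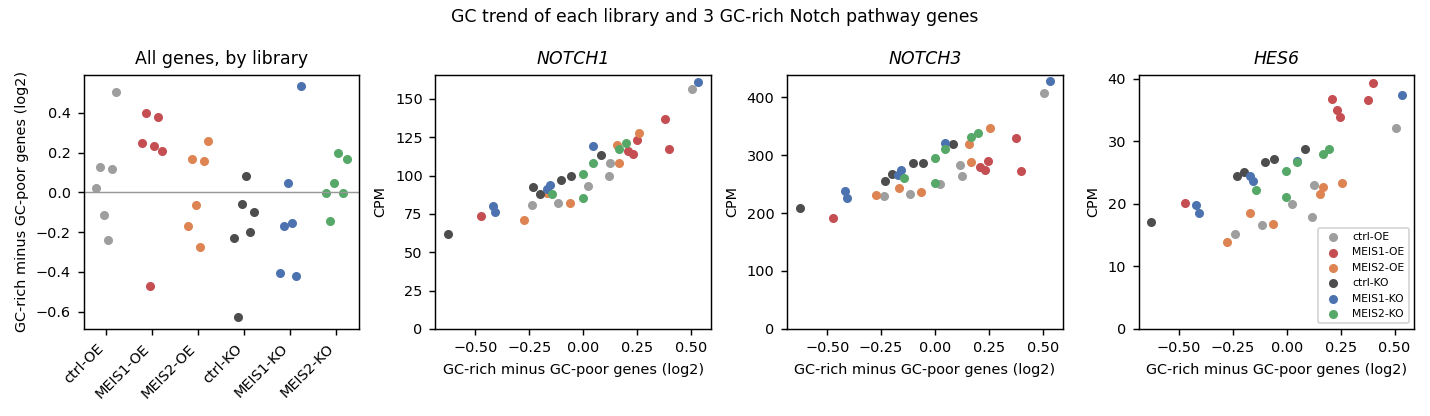
The left panel shows the GC trend of each library (log2, GC-rich minus GC-poor genes) by condition, and the other panels plot CPM of NOTCH1, NOTCH3 and HES6 in the 36 libraries against it, 1 point per library coloured by condition. The highest NOTCH1 value belongs to MEIS1-KO 6 and the lowest to ctrl-KO 2, the libraries with the highest and lowest trend, and for HES6 5 of the 6 MEIS1-OE libraries lie above all ctrl-OE libraries.

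The 250 bases before the annotated start are printed for HES1, the textbook Notch target, and for HES5, HEYL and HES7. HES5 was called lower after both activations, though after that of MEIS2 not without ctrl-OE 6. HEYL was called higher after MEIS2 activation and HES7 higher after MEIS1 activation. Whether the letters marked below bear on these changes was not tested. The sequences are from RefSeq (build GRCh38.p14, 5′ to 3′ on the strand of the gene), and capitals mark the 6-letter core bound by RBPJ, TGGGAA or its reverse complement TTCCCA.
HES1, chr3:194135898-194136147, plus strand: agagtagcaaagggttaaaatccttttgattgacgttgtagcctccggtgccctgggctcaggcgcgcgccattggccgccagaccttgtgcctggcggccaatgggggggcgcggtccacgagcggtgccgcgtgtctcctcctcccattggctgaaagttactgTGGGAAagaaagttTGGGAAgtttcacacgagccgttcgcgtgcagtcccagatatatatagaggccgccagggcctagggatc
HES5, chr1:2530264-2530513, minus strand: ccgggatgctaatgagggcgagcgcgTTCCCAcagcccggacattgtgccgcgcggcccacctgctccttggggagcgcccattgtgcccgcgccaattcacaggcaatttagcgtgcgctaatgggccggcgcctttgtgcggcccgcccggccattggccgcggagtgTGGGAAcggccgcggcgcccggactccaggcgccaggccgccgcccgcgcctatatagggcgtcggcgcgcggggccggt
HEYL, chr1:39639644-39639893, minus strand: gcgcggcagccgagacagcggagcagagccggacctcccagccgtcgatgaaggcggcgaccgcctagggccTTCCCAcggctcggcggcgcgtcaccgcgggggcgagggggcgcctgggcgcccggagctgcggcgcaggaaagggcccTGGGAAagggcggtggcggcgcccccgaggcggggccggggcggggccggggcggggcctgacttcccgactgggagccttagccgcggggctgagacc
HES7, chr17:8124107-8124356, minus strand: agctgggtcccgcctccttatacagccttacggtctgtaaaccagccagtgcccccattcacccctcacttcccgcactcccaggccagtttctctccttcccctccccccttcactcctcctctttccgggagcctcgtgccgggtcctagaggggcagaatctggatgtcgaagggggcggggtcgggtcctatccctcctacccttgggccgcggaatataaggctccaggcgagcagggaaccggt
HES1 held a pair of these cores, 84 and 70 bases before its start, HES5 had them at 224 and 80 bases and HEYL at 178 and 99 bases, counted from the first base of the match to the start. HES7 had none in this window. Of 35116 promoters of this length, 20.8% held the letters on either strand. A promoter was found for 32 of the 39 Notch genes and 7 of these held the core, 5 of them among the 9 matched target genes (HES1, HES4, HES5, HEY2 and HEYL). HEY1 was among the genes without a promoter. Shares over all promoters count each start, whereas a gene counted if any of its starts held the letters (RBPJ had 5 starts, LFNG 2). The letters TGACAG or CTGTCA, the core recognised by MEIS proteins, were in 13% of all promoters and in 5 of the 32 (DLL4, HES4, RBPJ, MAML1 and PSEN2). None of the printed windows held them.

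Per kilobase of exon, the highest levels came from genes of several roles. The length used is that of all annotated exons of a gene merged, whichever transcripts are expressed, so the ranking depends on it. Without division by length, NOTCH3 (282 CPM) and NCSTN (228 CPM) stood above APH1A (140 CPM). Over all libraries APH1A, a gamma-secretase subunit, had the highest mean level (40.4 CPM per kb), followed by NOTCH3 (29.9), the coactivator MAML1 (22.8), the gamma-secretase subunit NCSTN (19.8) and LFNG (19.1). HES1 was the highest of the targets at 14.2 CPM per kb, ahead of HES6 at 12.7. At the other end lay DLL4 (0.122), DNER (0.0768), HES2 (0.0315) and HEY2 (0.00512 CPM per kb). NOTCH2 reads may be shared with its NOTCH2NL paralogs, and 21.6% of the exonic bases of RFNG and 38.7% of those of PSEN2 overlap other genes, so these levels are uncertain. The overlap was 14.1% for APH1A, 11.7% for ADAM17, 9.69% for DLL1, 3.68% for MAML3 and 2.27% for NUMB. It was absent for HES5, HES6, HES7, HEY1, HEYL, LFNG, MFNG and RBPJ. In the build of the counts (hg19, GRCh37), the other genes that the results turn on are HES6 (chr2:239146908-239149303, minus strand), HEY1 (chr8:80674606-80680092, minus), MFNG (chr22:37865101-37882431, minus), LFNG (chr7:2552163-2568811, plus), RBPJ (chr4:26165077-26436753, plus) and MAML3 (chr4:140637907-141075338, minus).

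MEIS1 activation was accompanied by higher HES6 and HES7 and lower HES5, with no called change in receptors, ligands, nuclear complex or proteases. Against ctrl-OE, 5 of 39 Notch genes were called (12.8%), compared with 9.10% of all tested genes. HES7, a transcriptional repressor known from the segmentation clock, had 0.85, 1.19 and 1.29 CPM in ctrl-OE (lowest, median and highest library) and 1.86, 2.02 and 2.73 CPM in MEIS1-OE. The conditions did not overlap, and HES7 rose by 0.88 ± 0.18 on the log2 scale (SE, n = 6 per condition, edgeR adjusted p = 0.000518). Behind these values stand 19 to 32 counts per library in ctrl-OE and 37 to 55 in MEIS1-OE. HES6, which promotes neurogenesis and counteracts HES1, had 15.2, 18.9 and 32.1 CPM in ctrl-OE and 20.2, 35.8 and 39.4 in MEIS1-OE. Of the MEIS1-OE libraries, 5 lay above every control library, and the exception was MEIS1-OE 3. HES6 rose by 0.70 ± 0.16 (edgeR adjusted p = 0.00306), and with GC offsets by 0.62 ± 0.05 (edgeR adjusted p = 3.62e-14).

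MFNG, 1 of the Fringe enzymes, had 0.789, 1.19 and 2.06 CPM in ctrl-OE and 1.40, 1.91 and 2.18 in MEIS1-OE. Only 2 MEIS1-OE libraries exceeded all controls, and the rise of 0.58 ± 0.18 (edgeR adjusted p = 0.0361) was called in 11 of 18 alternatives. It was lost with only the compared groups fitted and without any 1 of the replicates 1 to 5 (highest edgeR adjusted p = 0.205). It was also lost without the single library MEIS1-OE 3 (0.53 ± 0.19, edgeR adjusted p = 0.0596). Without that library the ubiquitin ligase MIB1 was called lower in MEIS1-OE (-0.21 ± 0.07, edgeR adjusted p = 0.0421). NUMB, the inhibitor of Notch receptors, rose by 0.19 ± 0.05 (edgeR adjusted p = 0.0114), from 37.1, 38.9 and 44.1 CPM to 43.5, 45.4 and 48.8, with 5 of 6 libraries above all controls. The NUMB call held in 15 of 18 alternatives and was lost without replicate 3, without replicate 5 and with only the compared groups fitted. HEY1 had 0.703, 0.901 and 1.09 CPM in ctrl-OE and 0.728, 1.25 and 1.59 in MEIS1-OE, a difference of 0.42 ± 0.17 that was not called (edgeR adjusted p = 0.119). Of the cell type markers, PDGFRB and SYT1 were called higher and PROM1 and SOX1 lower in MEIS1-OE. Fold changes were above 0 for 2 of 6 tested neuronal, 2 of 7 neural stem cell and 4 of 5 mesenchymal and smooth muscle markers. The stem cell markers summed to 1266 to 1520 CPM against 1173 to 1649 CPM in ctrl-OE. The part of these markers in the Notch results was not tested.

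HES5, a main effector of Notch in neural stem cells, was scarce in every condition, with 236 counts in all 36 libraries. In ctrl-OE the libraries 1 to 6 had 11, 5, 3, 17, 1 and 35 counts, whereas MEIS1-OE had 0 to 2 and MEIS2-OE 0 to 4 counts. The summed counts were 72 in ctrl-OE, 8 in MEIS1-OE and 9 in MEIS2-OE. HES5 was lower by 2.96 ± 0.68 in MEIS1-OE (edgeR adjusted p = 0.00236) and by 2.79 ± 0.66 in MEIS2-OE (edgeR adjusted p = 0.0153) on the log2 scale, although in each only 3 libraries lay below the lowest control. The control level was 0.548 ± 0.599 CPM (SD, n = 6), a spread larger than its mean, with ctrl-OE 6 at 1.64 CPM. Without ctrl-OE 6 the MEIS2-OE difference was -2.08 ± 0.63 and not called (edgeR adjusted p = 0.123), while that of MEIS1-OE shrank to -2.25 ± 0.64 and was still called (edgeR adjusted p = 0.0184). The MEIS1-OE call held under all 18 alternatives run, with values between -3.33 and -1.97. That of MEIS2-OE held under 14 of 18, and was also lost without replicate 4, without replicate 6 and with only the compared groups fitted (highest edgeR adjusted p = 0.328). HES5 was also lower in both knockouts than in ctrl-KO, with a call in MEIS2-KO only, as given below. The comparisons of MEIS1-OE and MEIS2-OE share the same controls.

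**Figure D2:**
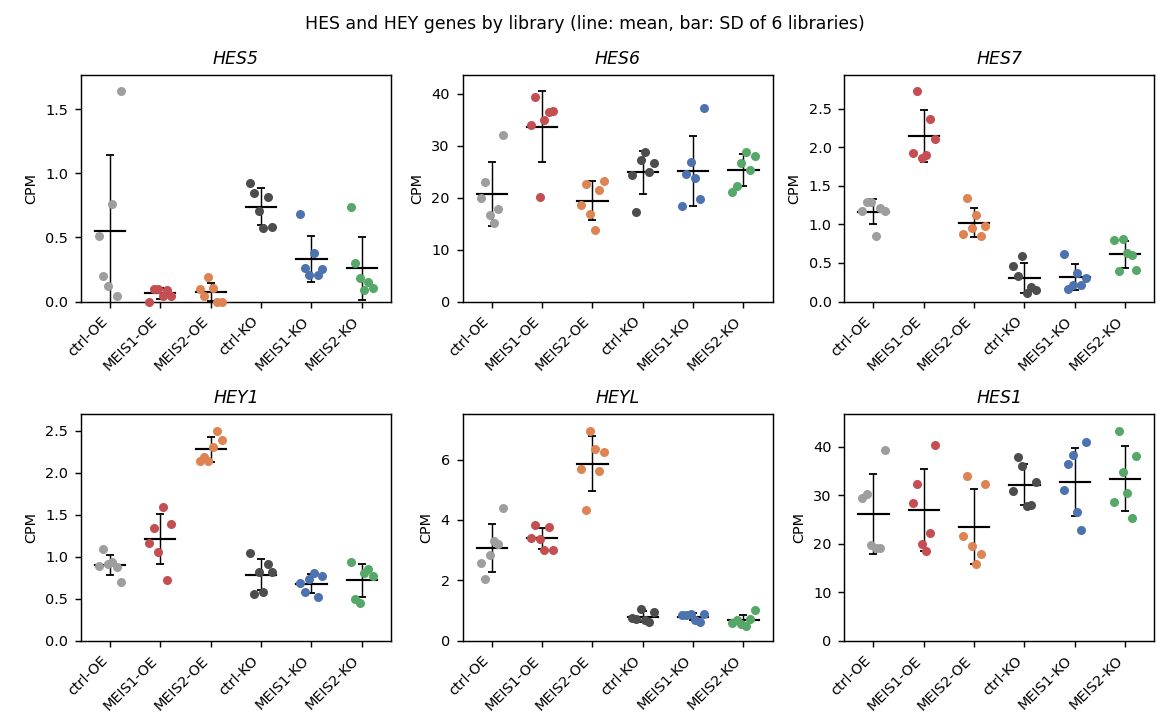
CPM of 6 HES and HEY genes in each library by condition (points), with the mean and SD of 6 libraries (lines and bars). HEY1 and HEYL are highest in MEIS2-OE, HES7 is highest in MEIS1-OE, the HES5 values of ctrl-OE spread from 0.0465 to 1.64 CPM, and HES1 overlaps between all conditions.

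MEIS2 activation was accompanied by higher HEY1 and HEYL, both of them hairy-related repressors downstream of Notch. Against ctrl-OE, 3 of 39 Notch genes were called (7.69%, compared with 1.35% of all tested genes): these 2 and HES5. HEY1 had 0.703, 0.901 and 1.09 CPM in ctrl-OE and 2.14, 2.25 and 2.50 in MEIS2-OE. The 6 MEIS2-OE libraries, with 43 to 56 counts each, all lay above the controls, and HEY1 rose by 1.32 ± 0.15 on the log2 scale, or 2.51-fold (edgeR adjusted p = 6.21e-08). HEYL had 2.06, 3.02 and 4.41 CPM in ctrl-OE and 4.32, 5.98 and 6.96 in MEIS2-OE. Here 5 of 6 libraries exceeded every control, and HEYL rose by 0.94 ± 0.13, or 1.92-fold (edgeR adjusted p = 2.92e-06). Both calls held under all 18 alternatives. Of 6 endothelial markers only the receptor gene KDR was called higher in MEIS2-OE, and 3 of the 6 had a fold change above 0. Their sum was 130 to 171 CPM against 107 to 135 CPM in ctrl-OE, and their part in these results was not tested. No receptor, ligand, Fringe gene, nuclear component, protease or regulator was called, apart from DTX1, a ubiquitin ligase, which had 0.46 more on the log2 scale with GC offsets (edgeR adjusted p = 0.0411) and was not called without them (0.40 ± 0.14, edgeR adjusted p = 0.231).

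The 2 activations were then set against each other, a comparison whose fold changes do not use the controls, although all conditions share 1 estimate of the spread. Of the 39 Notch genes 6 were called (15.4%, against 7.75% of tested genes). Of these 6, 5 did not overlap between MEIS1-OE and MEIS2-OE. The 6 were called on the same values, and the share of all genes without overlap was not counted, so this adds nothing to the calls. HES7 was higher in MEIS1-OE by 1.07 ± 0.18 (edgeR adjusted p = 5.25e-05) and HES6 by 0.79 ± 0.16 (edgeR adjusted p = 0.000823). HES6 was the 1 that overlapped, through MEIS1-OE 3 at 20.2 CPM against 13.9 to 23.3 CPM in MEIS2-OE. MFNG, at 1.40 to 2.18 CPM against 0.807 to 1.33, was higher in MEIS1-OE by 0.75 ± 0.19 (edgeR adjusted p = 0.00698), a call lost without replicate 5 of every condition (0.63 ± 0.21, edgeR adjusted p = 0.0793). NUMB, at 43.5 to 48.8 CPM against 34.1 to 41.9, was higher by 0.20 ± 0.05 (edgeR adjusted p = 0.00723). In the other direction, HEY1 was lower in MEIS1-OE by 0.91 ± 0.14 (edgeR adjusted p = 1.57e-05) and HEYL by 0.79 ± 0.13 (edgeR adjusted p = 1.72e-05). The called HES and HEY genes split between the paralogs, HES6 and HES7 being higher with MEIS1 and HEY1 and HEYL with MEIS2. For HES5 the difference was -0.17 with a 95% interval from -2.19 to 1.85, too wide at these counts to tell the activations apart. With GC offsets NOTCH3 was also called (-0.14 ± 0.04, edgeR adjusted p = 0.0203), and without MEIS1-OE 3 so were DLL4 (0.71 ± 0.22, edgeR adjusted p = 0.0270) and MIB1 (-0.23 ± 0.07, edgeR adjusted p = 0.0231).

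**Figure D3:**
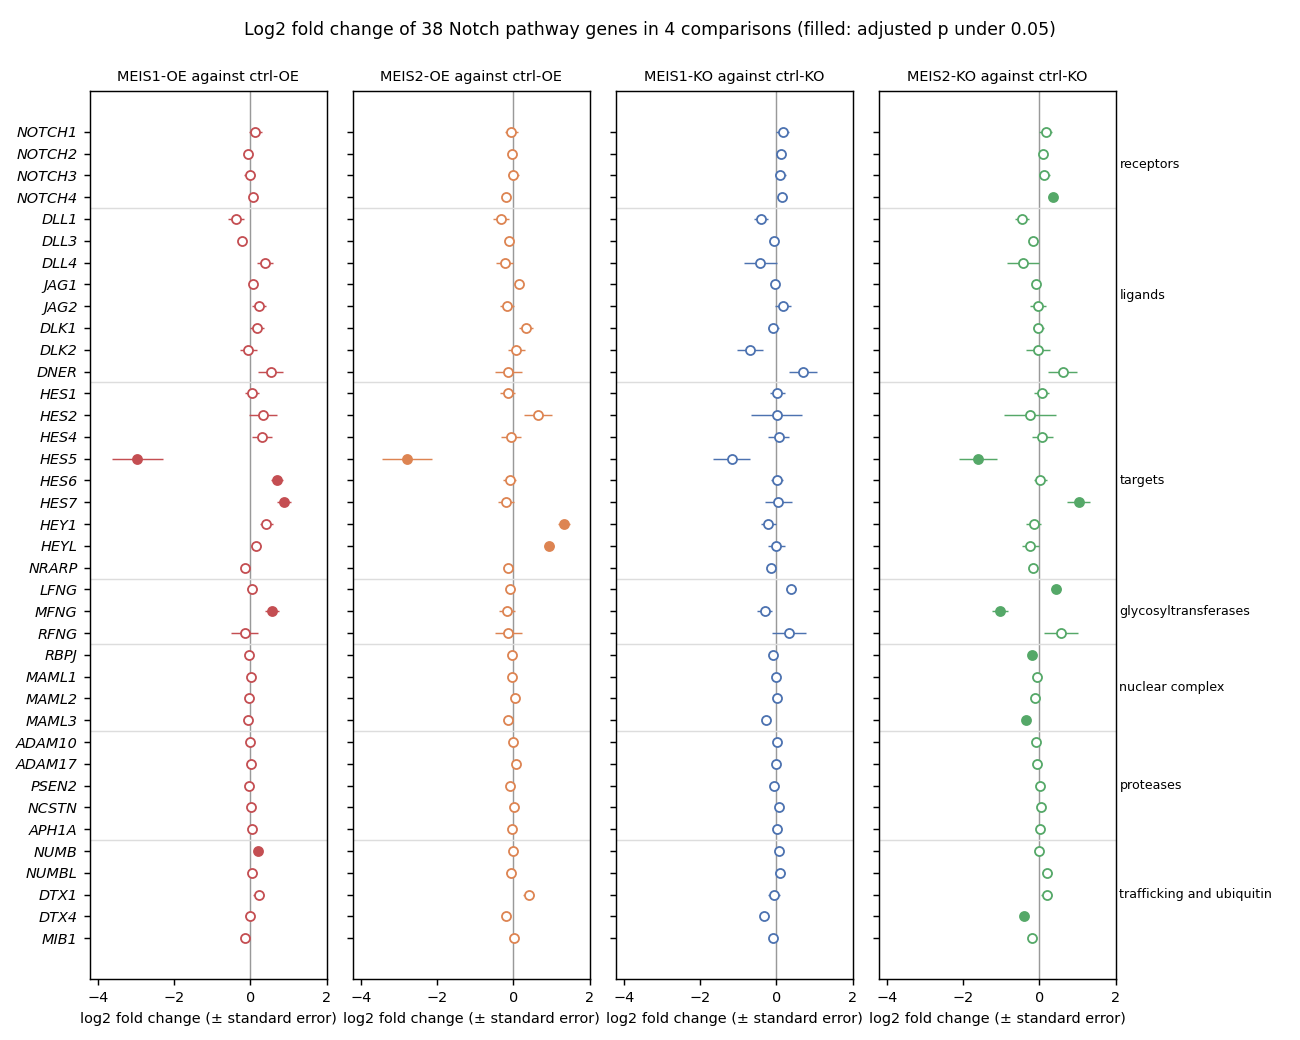
Log2 fold change (± SE) of 38 Notch genes, ordered by role, in the 4 comparisons with controls; filled points have an edgeR adjusted p under 0.05, and HEY2 is left out for its 10 counts. Called changes after activation are mostly in the group of target genes, HES6 among them, and in MEIS2-KO they also include Fringe genes and the nuclear complex.

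After knockout of MEIS1, 0 of 39 Notch genes were called by edgeR, where 1.46% of all tested genes were. An unadjusted p under 0.05 was found for 6 of them (15.4%, against 11.6% of tested genes), and DESeq2 called 1, MAML3. This coactivator of the nuclear complex had 20.4, 21.8 and 23.0 CPM in ctrl-KO and 15.4, 18.0 and 19.7 CPM in MEIS1-KO. The conditions did not overlap, but the difference of -0.27 ± 0.08 missed the threshold (edgeR adjusted p = 0.0945) and passed it with GC offsets (-0.28 ± 0.08, edgeR adjusted p = 0.0242) and without ctrl-OE 6 (-0.28 ± 0.07, edgeR adjusted p = 0.0239). LFNG had 47.3, 58.7 and 67.4 CPM in ctrl-KO and 61.5, 69.0 and 108 CPM in MEIS1-KO, where MEIS1-KO 6 is the highest. Its difference of 0.38 ± 0.13 (edgeR adjusted p = 0.140) was called with GC offsets only (0.30 ± 0.05, edgeR adjusted p = 5.34e-05).

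After knockout of MEIS2 the called changes included genes of the nuclear complex and Fringe enzymes, though no Notch gene was called between MEIS1-KO and MEIS2-KO. Of the 39 Notch genes 8 were called (20.5%, compared with 10.0% of all tested genes), 3 higher and 5 lower, where 4.04% of tested genes were higher and 5.98% lower. Between the same conditions the GC trend had a mean of -0.189 in ctrl-KO and 0.044 in MEIS2-KO, and with GC offsets 10 were called, 1 higher and 9 lower. Only 2 were called when replicate 4, or replicate 5, of every condition was left out. Without ctrl-KO 2 alone 4 were called, 1 higher and 3 lower, since NOTCH4, HES5, LFNG and RBPJ were lost (edgeR adjusted p = 0.0687, 0.0717, 0.0733 and 0.0861). MFNG had 0.956, 1.33 and 1.79 CPM in ctrl-KO and 0.469, 0.661 and 0.854 in MEIS2-KO. No library overlapped, and MFNG fell by 1.03 ± 0.22 on the log2 scale, to 0.488 of the control (edgeR adjusted p = 0.0017). LFNG went the other way, from 47.3, 58.7 and 67.4 CPM to 70.9, 80.3 and 89.2 CPM. Again no library overlapped, and the rise was 0.44 ± 0.13 (edgeR adjusted p = 0.019), or 0.30 ± 0.05 with GC offsets (edgeR adjusted p = 9.54e-06). The third enzyme, RFNG, differed by 0.57 ± 0.44 and was not called (edgeR adjusted p = 0.473).

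In the nuclear complex, MAML3 fell from 20.4, 21.8 and 23.0 CPM to 16.3, 17.0 and 18.5 CPM, a change of -0.34 ± 0.08 (edgeR adjusted p = 0.006). RBPJ, the DNA-binding component, had 141, 150 and 163 CPM in ctrl-KO and 125, 130 and 139 in MEIS2-KO. The conditions lay side by side without overlap, and the fall of -0.20 ± 0.06 (edgeR adjusted p = 0.0289) shrank to -0.10 ± 0.03 with GC offsets (edgeR adjusted p = 0.0487). DTX4, a ubiquitin ligase of the Deltex family, had 121, 141 and 165 CPM against 99.9, 108 and 121 CPM. The difference was -0.39 ± 0.11 (edgeR adjusted p = 0.0163), again with no library of MEIS2-KO above the lowest control. The ligand DLL1 was also below all controls in every MEIS2-KO library (9.73, 10.7 and 12.1 CPM against 13.9, 14.4 and 16), yet at -0.45 ± 0.18 it was not called (edgeR adjusted p = 0.117). It was called with GC offsets (edgeR adjusted p = 0.0116) and without ctrl-OE 6 (edgeR adjusted p = 0.0456), as was MIB1 without MEIS1-OE 3 (-0.20 ± 0.07, edgeR adjusted p = 0.0443).

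HES7 in MEIS2-KO had 0.402, 0.617 and 0.815 CPM against 0.105, 0.265 and 0.589 in ctrl-KO, from 8 to 18 and 2 to 10 counts. The rise of 1.03 ± 0.30 (edgeR adjusted p = 0.0225) was not called with GC offsets (0.89 ± 0.33, edgeR adjusted p = 0.069). The same held for the receptor NOTCH4, which had 3.99, 4.72 and 5.08 CPM in ctrl-KO and 4.83, 5.98 and 6.92 in MEIS2-KO, a difference of 0.35 ± 0.11 (edgeR adjusted p = 0.0359) that became 0.21 ± 0.10 (edgeR adjusted p = 0.149). HES5 had 11 to 17 counts per library in ctrl-KO, 4 to 11 in MEIS1-KO and 2 to 11 in MEIS2-KO. It fell by 1.60 ± 0.51 in MEIS2-KO (edgeR adjusted p = 0.0362), with 5 of 6 libraries below every control, and differed by -1.17 ± 0.48 in MEIS1-KO without a call (edgeR adjusted p = 0.294). With GC offsets HES6 (-0.14, edgeR adjusted p = 0.047), NRARP (-0.27, edgeR adjusted p = 0.0441) and MAML1 (-0.11, edgeR adjusted p = 0.0255) were also called lower in MEIS2-KO.

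Other cell type markers moved between the same conditions. In MEIS2-KO 4 of 7 neural stem cell markers were lower (FABP7, PAX6, PROM1 and SOX1), while the sum of the 7 was 2176 to 2667 CPM against 2090 to 2435 CPM in ctrl-KO. Of 5 mesenchymal and smooth muscle markers 4 were higher (ACTA2, COL1A1, COL1A2 and TAGLN), with a sum of 668 to 938 CPM against 431 to 594 CPM. Of the neuronal markers DCX was lower, and the 7 in the list summed to 695.1 to 845.7 CPM against 840.3 to 939.5 CPM. Of 6 endothelial markers CDH5 and KDR were higher (206 to 253 CPM against 170 to 186 CPM in sum). In MEIS1-KO 3 of the 5 mesenchymal markers were higher and PAX6 was lower. No marker of these 4 lists was at 0 throughout a knockout condition, and their part in the Notch results was not tested. Between MEIS1-KO and MEIS2-KO no Notch gene was called by edgeR (0.0152% of all tested genes were, 4 Notch genes had an unadjusted p under 0.05, as did 5.68% of all genes, and DESeq2 called 0). HEY2 aside, the widest differences were HES7 at -0.98 ± 0.30 and MFNG at 0.72 ± 0.23 (edgeR adjusted p = 0.855 for each). For each gene called in MEIS2-KO, the MEIS1-KO mean lay between those of ctrl-KO and MEIS2-KO. In the order ctrl-KO, MEIS1-KO and MEIS2-KO, RBPJ had 150, 140 and 131 CPM and DTX4 144, 116 and 109 CPM. MFNG had 1.41, 1.13 and 0.673 CPM, NOTCH4 4.67, 5.21 and 5.96 CPM, and HES7 0.305, 0.313 and 0.611 CPM.

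**Figure D4:**
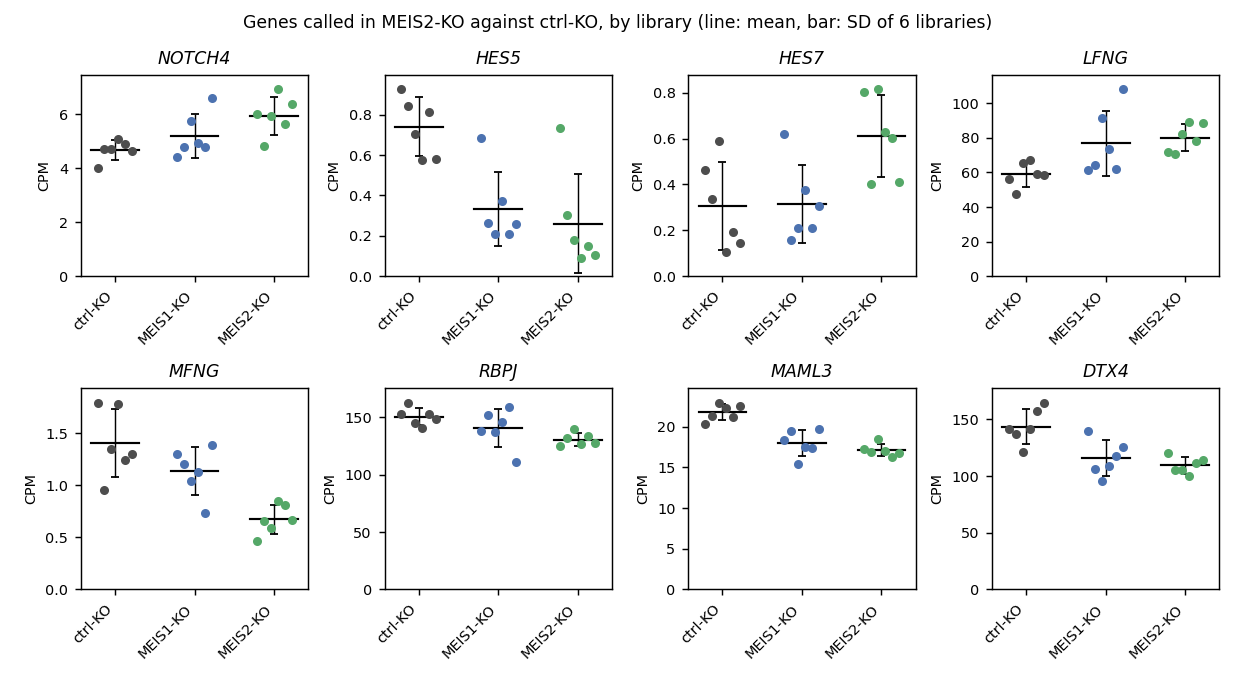
CPM by library in the 3 knockout conditions (points), with mean and SD of 6 libraries, for the 8 Notch genes called in MEIS2-KO against ctrl-KO. MEIS2-KO and ctrl-KO do not overlap for LFNG, MFNG, RBPJ, MAML3 and DTX4, which were called on the same values. The share of all genes without overlap was not counted. For all 8 genes the MEIS1-KO mean lies between those of ctrl-KO and MEIS2-KO, as for LFNG (76.8 CPM) and MAML3 (18.0 CPM).

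Activation and knockout were also combined, by subtracting the knockout effect from the activation effect of the same gene. For MEIS2, 3 of 39 Notch genes were called (2.57% of all genes): HEY1 at 1.47 ± 0.25 (edgeR adjusted p = 0.000219), HEYL at 1.18 ± 0.26 (edgeR adjusted p = 0.00616) and NOTCH4 at -0.55 ± 0.15 (edgeR adjusted p = 0.0379). Under knockout neither HEY gene was called, HEY1 having 0.453 to 0.938 CPM in MEIS2-KO and 0.562 to 1.04 CPM in ctrl-KO, and HEYL 0.495 to 1.03 CPM and 0.624 to 1.06 CPM. Without replicate 3 the HEYL value of 0.95 was not called. The NOTCH4 call was lost in 9 of 18 alternatives: with GC offsets (-0.37, edgeR adjusted p = 0.102), without any 1 of the replicates 1 to 6, without ctrl-OE 6 (edgeR adjusted p = 0.0691) and without ctrl-KO 2 (edgeR adjusted p = 0.0635). GC offsets added LFNG (-0.33 ± 0.06, edgeR adjusted p = 0.000945) and MFNG (1.01 ± 0.28, edgeR adjusted p = 0.0286), and MFNG was also called without ctrl-OE 6 (edgeR adjusted p = 0.0220). For MEIS1, edgeR called 0 of 39 (3.48% of all genes), 4 had an unadjusted p under 0.05 (13.1% of all genes did), and DESeq2 called 0. MFNG at 0.89 ± 0.27 (edgeR adjusted p = 0.0599) and HES6 at 0.68 ± 0.23 (edgeR adjusted p = 0.107) came closest in adjusted p, and both were called with GC offsets, without ctrl-OE 6 and without MEIS1-KO 6. HES6 alone was called without MEIS1-OE 3, MFNG alone without ctrl-KO 2, and LFNG with GC offsets (-0.33 ± 0.06, edgeR adjusted p = 0.000542).

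Between the delivery systems the Notch genes differed about as often as other genes. In ctrl-OE against ctrl-KO, 21 of 39 were called (53.8%, compared with 51.4% of all tested genes), 12 higher and 9 lower in ctrl-OE (27.5% and 23.9% of tested genes). Ligands were involved throughout, with 7 of 8 called. JAG1 had 54.7, 58.4 and 63.0 CPM in ctrl-OE and 157, 160 and 174 in ctrl-KO, a difference of -1.48 ± 0.06 (edgeR adjusted p = 6.35e-21). DLL1 was lower by 1.44 ± 0.19 (edgeR adjusted p = 3.41e-08), with 2.41 to 10.5 CPM against 13.9 to 16. DLK1, a non-canonical ligand, was lower by 1.86 ± 0.16 (edgeR adjusted p = 1.69e-12), with 1.07 to 2.58 CPM against 5.06 to 8.69. DLL3, a ligand known to act within the cell, stood higher by 1.34 ± 0.11 (edgeR adjusted p = 1.47e-13), with 5.19 to 7.21 CPM against 1.85 to 2.88. DLL4 was higher by 1.97 ± 0.30 (edgeR adjusted p = 4.70e-07), from 1 to 7 counts per library in ctrl-KO and 14 to 28 in ctrl-OE. None of these 5 ligands overlapped between the controls, though the share of all genes without overlap was not counted. JAG2 and DLK2 were also higher in ctrl-OE.

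All 4 genes of the nuclear complex were lower in ctrl-OE, from -0.15 ± 0.04 for MAML1 (edgeR adjusted p = 0.00127) to -0.62 ± 0.08 for MAML3 (edgeR adjusted p = 5.76e-08). Among targets, HES7 was 3.90-fold and HEYL 3.79-fold higher in ctrl-OE (edgeR adjusted p = 4.14e-08 and 3.53e-12). HES2, with 0 to 3 counts per library in ctrl-KO and 2 to 8 in ctrl-OE, was higher by 1.51 ± 0.51 (edgeR adjusted p = 0.0127), though not called without replicate 1 (1.21) or replicate 3 (1.30). The levels of both HES7 and HEYL separated all activation libraries from all knockout libraries. HES7 was at 0.849 to 2.73 CPM in the 18 activation libraries and at 0.105 to 0.815 CPM in the 18 knockout libraries, and HEYL was at 2.06 to 6.96 CPM and 0.495 to 1.06 CPM. The sums of neural stem cell markers differ between the same conditions, as given above, and all 7 of them were lower in ctrl-OE. With GC offsets 26 of 39 were called, NOTCH2 (0.18 ± 0.06, edgeR adjusted p = 0.00467) being added as higher and NOTCH3 (-0.23 ± 0.04, edgeR adjusted p = 8.45e-06), HES6 (-0.52 ± 0.05, edgeR adjusted p = 1.19e-12), LFNG (-0.22 ± 0.05, edgeR adjusted p = 5.39e-05) and APH1A (-0.12 ± 0.03, edgeR adjusted p = 0.0020) as lower in ctrl-OE. Without ctrl-OE 6 HES5 and HES6 were added (edgeR adjusted p = 0.0147 and 0.0286), and RFNG was lost without ctrl-OE 6 (edgeR adjusted p = 0.163) or without ctrl-KO 2 (edgeR adjusted p = 0.0597). System, guides and any difference in culture cannot be told apart here.

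**Figure D5:**
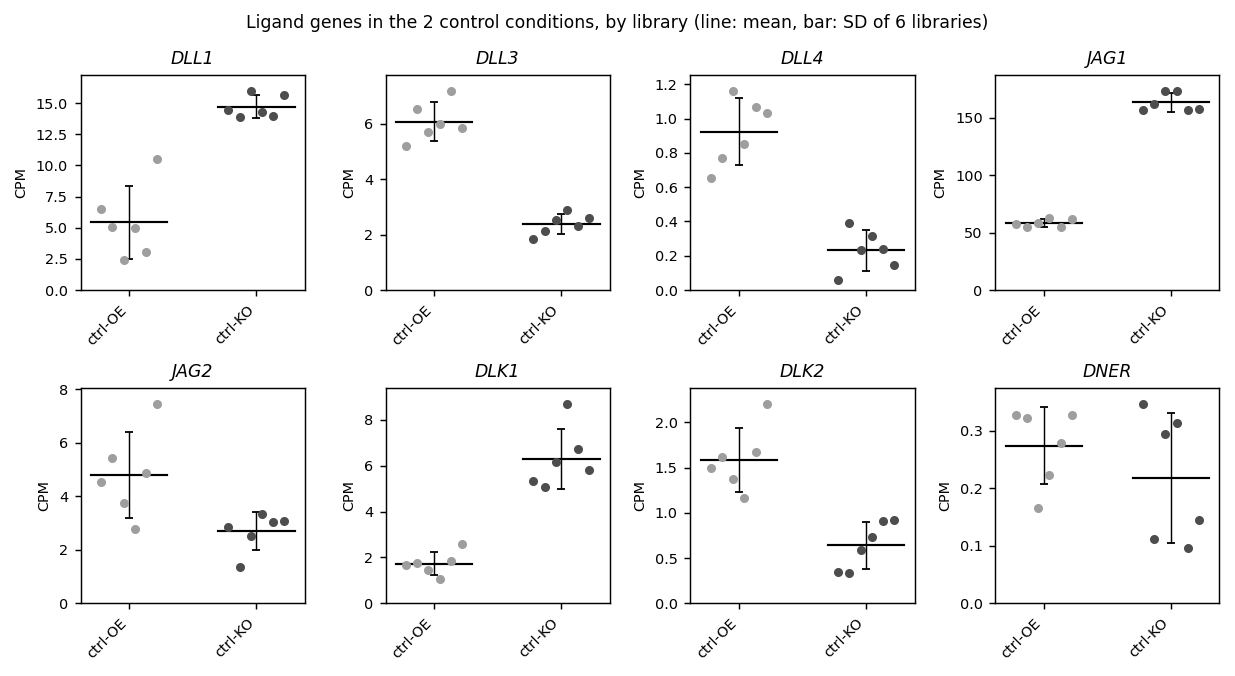
CPM of the 8 ligand genes in each library of the control conditions ctrl-OE and ctrl-KO (points), with mean and SD of 6 libraries. JAG1, DLL1 and DLK1 are lower and DLL3, DLL4 and DLK2 are higher in all ctrl-OE libraries than in any ctrl-KO library, while DNER overlaps.

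Of the 39 genes, 13 were called in none of the 9 comparisons: NOTCH1, NOTCH2, NOTCH3, DNER, HES1, HES4, HEY2, NRARP, ADAM17, APH1A, NUMBL, DTX1 and MIB1. Of these, NOTCH2, NOTCH3, APH1A, NRARP and DTX1 were called in a comparison with GC offsets. HES4 and MIB1 were called without a single library, as given here or with that comparison. With replicate number as a block, HES1 (-0.34), NOTCH2 (0.13) and NUMBL (0.25) were called in ctrl-OE against ctrl-KO. HES1, the most abundant target, had a median of 24.5 CPM in ctrl-OE, 25.3 in MEIS1-OE, 20.6 in MEIS2-OE, 31.8 in ctrl-KO, 33.8 in MEIS1-KO and 32.6 in MEIS2-KO. Its fold change against control was 0.05 in MEIS1-OE (95% interval -0.33 to 0.43) and -0.15 in MEIS2-OE (-0.53 to 0.23). It was 0.03 in MEIS1-KO (-0.35 to 0.41) and 0.06 in MEIS2-KO (-0.32 to 0.43). With replicate number as a block, its SE was 0.11 in each of these comparisons. NRARP, which is induced by Notch and limits it, had narrower intervals, from -0.30 to 0.00 in MEIS1-OE and from -0.33 to -0.02 in MEIS2-KO. NOTCH1 spread from 80.9 to 156 CPM within ctrl-OE alone, and its SE of 0.17 in MEIS1-OE against ctrl-OE became 0.06 once the GC trend was removed, with a fold change of 0.08 (edgeR adjusted p = 0.439). HES4, the most GC-rich, differed in MEIS1-OE by 0.31 ± 0.26 (edgeR adjusted p = 0.57) and by 0.72 ± 0.23 without ctrl-OE 6 (edgeR adjusted p = 0.0357).

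A second list of 40 further Notch pathway genes, 39 of them tested, was called about as often as all genes or less against the controls. In MEIS1-OE 2 were called (5.13%, against 9.10% of tested genes), both higher: the ubiquitin ligase DTX3L by 0.29 ± 0.06 (edgeR adjusted p = 0.00103) and the Dishevelled gene DVL3 by 0.20 ± 0.04 (edgeR adjusted p = 0.0022). In MEIS2-OE and in MEIS1-KO edgeR called none, with 2 and 6 at an unadjusted p under 0.05. In MEIS2-KO 4 were called (10.3%, against 10.0%), of which 1 was higher, PSENEN, a gamma-secretase subunit (0.18 ± 0.06, edgeR adjusted p = 0.036), and 3 were lower. The lower ones are corepressors that act with HES proteins or RBPJ, or their partner deacetylase: TLE4 at -0.30 ± 0.06 (edgeR adjusted p = 0.000704), HDAC2 at -0.17 ± 0.05 (edgeR adjusted p = 0.0235) and SPEN, named after its values were seen, at -0.19 ± 0.06 (edgeR adjusted p = 0.0267). Between the controls 25 were called (64.1%, against 51.4%), 16 higher and 9 lower in ctrl-OE. Proneural genes, which HES proteins repress, were nearly silent: only NEUROG2 and NEUROD1 of 5 reached 10 counts over all libraries, and neither was called by edgeR in any comparison, with 1 at an unadjusted p under 0.05 in MEIS1-KO.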

How the data were processed

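RNA was sequenced as stranded poly-A libraries with paired reads of 100 bases. Per the labels, the authors trimmed reads with Trimmomatic 0.39, aligned them to hg19 with STAR (2.4.2a in the design text, 2.7.0a in the processing notes) and counted them per gene with HTSeq. The values used are these deposited raw counts. The annotation and the strand setting are not given in the sources used here.

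Genes with at least 10 counts summed over the 36 libraries were kept, scaled by TMM and fitted in 1 model of 6 conditions with edgeR 4.0.16 (R 4.3.3, quasi-likelihood F test, two-sided, prior count 0.125). P-values were adjusted by Benjamini-Hochberg over all tested genes. CPM depend on what else a library holds, so a fold change is relative to the other genes. GC offsets subtracted the trend of each library's log2 deviations on transcript GC content in 20 bins of genes. Exon lengths, overlaps and hg19 positions came from GENCODE, and promoters from RefSeq. The alternatives, among them DESeq2 1.42.0, are given with the dependence on processing. Values are given for each Notch gene called against a control or in a combined contrast, and for the 6 with the largest changes among those called only between the controls. Of the further pathway genes, at most 2 per direction and comparison were named. HES1, HES4, NRARP, NOTCH1, NOTCH3, RFNG, DTX1 and MAML1 were added after their values were seen. The scripts were tested on simulated data. The Notch genes and the other lists were chosen with earlier results of these data known.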

Additional observations from a re-analysis of the deposited data

Results flagged for a closer look

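Among 224 sets of 6 libraries (1 gene in 1 condition), 25 held a library far from the other 5 by Dixon's criterion, which chance gives in about 1 in 20. MEIS1-OE 3 was low for NOTCH1 (73.6 CPM against 114 to 137 CPM), JAG2 (3.93 CPM), DLK2 (0.554 CPM), HES6 (20.2 CPM), LFNG (41.5 CPM) and PSEN2 (14.3 CPM). This is the library whose GC trend was -0.472. The library ctrl-OE 6, with a GC trend of 0.506, was high for NOTCH1 (156 CPM against 80.9 to 108 CPM), NOTCH3 (407 CPM against 229 to 283 CPM), HES4 (7.13 CPM) and NUMBL (25.0 CPM). MEIS1-KO 6, with the highest GC trend, was high for JAG2 (4.46 CPM), PSEN2 (15.1 CPM) and APH1A (159 CPM), and ctrl-KO 2, with the lowest, was low for HES6 (17.2 CPM). The part of the GC trend in each of these values was not tested gene by gene.

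HES5 was high in MEIS1-KO 1 (0.684 CPM) and in MEIS2-KO 1 (0.737 CPM), both from 11 counts. Other single libraries apart from their condition were ctrl-OE 4 for HES7 (0.85 CPM) and ADAM10 (168 CPM), MEIS2-OE 2 for MAML2 (26.4 CPM) and NUMB (34.1 CPM), and MEIS2-OE 4 for DLL3 (4.84 CPM). In the knockout conditions they were ctrl-KO 6 for NOTCH2 (218 CPM), MEIS1-KO 1 for NCSTN (216 CPM), MEIS2-KO 1 for MAML2 (34.2 CPM) and MEIS2-KO 3 for NRARP (19.3 CPM).

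The effects of activating MEIS1 and MEIS2 differed for 6 Notch genes in the direct comparison, given here as log2 fold change of MEIS1-OE over MEIS2-OE. These were HES6 (0.789), HES7 (1.07), MFNG (0.746), NUMB (0.202), HEY1 (-0.907) and HEYL (-0.788).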

How the results depend on the processing

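For single genes, 953 values were recomputed under alternatives to the settings used: 854 kept direction and side of the threshold, 54 lost the call, 37 gained one and 8 changed sign. The calls of HES5, HES6 and HES7 in MEIS1-OE, of HEY1 and HEYL in MEIS2-OE, of MFNG and MAML3 in MEIS2-KO and of HEY1 in the MEIS2 contrast held in all 18 alternatives. The sign changed for HES6 in MEIS2-KO (0.03) with GC offsets (-0.14), without ctrl-KO 2 (-0.056) and without 1 replicate each (lowest -0.022, highest 0.068), and for LFNG in ctrl-OE against ctrl-KO (0.02) with GC offsets (-0.22) and without 1 replicate each (lowest -0.064, highest 0.14), or without ctrl-OE 6 (-0.060) or ctrl-KO 2 (-0.032). The 5 calls in MEIS1-OE became 3 with only the groups compared, 3 above a log2 fold change of 0.58 and 3 to 6 without a replicate, MFNG and NUMB being lost most. The 0 calls in MEIS1-KO became 1 with DESeq2, 2 with GC offsets and 0 to 1 without a replicate. The 8 in MEIS2-KO became 3 above 0.58, 4 without ctrl-KO 2 and 2 to 9 without a replicate. The 0 in the MEIS1 contrast became 1 with filterByExpr, 3 with GC offsets and 0 to 3 without a replicate, and the 3 in the MEIS2 contrast became 5 with only the groups compared and 1 to 3 without a replicate. The cause of these shifts was not tested. GC offsets and the removal of ctrl-OE 6, MEIS1-OE 3, MEIS1-KO 6 or ctrl-KO 2 were chosen after seeing the data.

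Libraries were not treated as paired by replicate number. Deviations of same-numbered libraries had a mean correlation of 0.0361, with 16 of 90 pairs above 0.1, against -0.00732 for other numbers. The mean correlation within a number was highest for number 6, at 0.127, and 16 of 36 libraries correlated best with their own number. With the replicate block, 1 gene, HES6, was called in the MEIS1 contrast where none was without it, and no other count moved by over 1.5 times. HES1 was high in replicates 2 and 6 of every activation condition, and its SE against the controls was 0.11 with the block and 0.19 without. With the block HES1 was lower in ctrl-OE than in ctrl-KO (-0.34, edgeR adjusted p = 0.00929). NOTCH2 (0.13, edgeR adjusted p = 0.0118) and NUMBL (0.25, edgeR adjusted p = 0.0492) were then higher in ctrl-OE. The main fit leaves any spread shared by same-numbered libraries in its SE. Counts limit what can be seen of HEY2 (10 in all), HES5 and HES2.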
